A study of Mus musculus and Homo sapiens with 4 samples.

Results

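The 7 genes described here are Pou5f1, Nanog, Sox2, Klf4, Esrrb, Lin28a and Myc, which mark or maintain the pluripotent state of mouse embryonic stem cells (ES cells). They were chosen by name and by 1 Ensembl transcript each, and all 7 transcripts were found among the 93380 transcripts counted, of which 43857 have a coding region. The values are ribosome footprints, the RNA stretches protected from nuclease by ribosomes, sequenced in 2 libraries of E14 cells. E14 is a single line of 129/Ola background, grown feeder-free in LIF, which holds such cells in the undifferentiated state. One library came from cells given emetine for 60 s, at a concentration that the labels do not state. The other came from cells given cycloheximide at 100 µg/ml for 60 s. Both drugs stop elongating ribosomes, emetine by binding the small ribosomal subunit and cycloheximide by binding the large one, and no library without a drug was analysed here. With 1 library per drug there is no test of the drugs and no p-value. The intervals given are exact 95% counting intervals, which leave out variation between cultures and copies made by PCR.

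Pluripotent cells keep their state through a small circuit of transcription factors that bind one another's genes. Pou5f1 (Oct4), a POU homeodomain factor, and Sox2, an HMG-box factor, bind DNA side by side, and Nanog, a homeodomain protein, acts on many of the same sites. Klf4, a zinc-finger factor, and Esrrb, an orphan nuclear receptor, stabilise the circuit in cells held with LIF. Lin28a is an RNA-binding protein that blocks maturation of the let-7 microRNAs, and Myc is a basic helix-loop-helix factor that drives growth and division. Pou5f1, Sox2, Klf4 and Myc are the original reprogramming factors.

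In the GRCm38.p6 annotation of RefSeq the genes lie on 6 chromosomes. Pou5f1 lies at chr17:35506032-35510777, Nanog at chr6:122707489-122714633 and Sox2 at chr3:34649995-34652461. Klf4 lies at chr4:55527137-55532475, Esrrb at chr12:86361117-86521628, Lin28a at chr4:134003330-134019196 and Myc at chr15:61985341-61990361. Sox2 lies within the long noncoding RNA gene Sox2ot, and Esrrb overlaps the noncoding gene Gm40483. RefSeq also lists 5 Pou5f1-related pseudogenes (Pou5f1-rs) and 2 of Nanog (Nanog-ps). The sources used here do not say how reads with several matches or from overlapping genes were assigned. The counts of Pou5f1, Nanog, Sox2 and Esrrb carry that uncertainty. Pseudogenes of genes other than Pou5f1 and Nanog were not looked for, so the other counts may carry it too.

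All 7 coding regions carried many footprints and ranked in the top 25% of the 43857 coding regions in both libraries. In both libraries 4 of 7 ranked in the top 10%, namely Pou5f1, Nanog, Sox2 and Esrrb. Among only the 28604 coding regions with at least 100 reads summed over the libraries, 2 of 7 were in the top 10% in both. A given rank is a larger share of these than of all 43857. Coding regions ahead of Myc and Klf4 all had more than 100 reads, so both genes keep their ranks among the 28604. Myc at rank 8395 with emetine and 7462 with cycloheximide lay outside the top 25% of these in both libraries. So did Klf4, at rank 9858 with emetine and 10268 with cycloheximide. A rank goes by raw reads, and a long coding region gathers more reads at the same density. Coding lengths of these transcripts were not used here, so the order of the genes by reads is not an order of translation. A footprint count also rises both with more messenger RNA and with more ribosomes on each message, and these cannot be told apart here.

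The core trio had the most coding reads. Pou5f1 (ENSMUST00000025271) had 16581 coding reads with emetine and 25511 with cycloheximide, at rank 718 and rank 1089. Nanog (ENSMUST00000012540) had 7816 with emetine and 17303 with cycloheximide, at rank 1926 and rank 1678. Sox2 (ENSMUST00000099151) had 4465 with emetine and 10133 with cycloheximide, at rank 3568 and rank 2932. Every one of these raw counts was lower with emetine, and that library is shallower, with 78702902 coding counts against 163107357 with cycloheximide. Ranks do not depend on this depth, and those of Nanog and Sox2 were also farther from the top with emetine. Pou5f1 stood in the top 1.64% with emetine and the top 2.48% with cycloheximide.

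The LIF-responsive and supporting factors followed. Esrrb (ENSMUST00000110204) had 3994 coding reads with emetine and 9228 with cycloheximide, at rank 4027 and rank 3235. Lin28a (ENSMUST00000051674) had 4310 with emetine and 6561 with cycloheximide, at rank 3723 and rank 4558. Esrrb and Lin28a thus changed places between the libraries, and they are the only neighbours in the order of reads that did. Myc (ENSMUST00000022971) had 1882 coding reads with emetine and 3812 with cycloheximide, at rank 8395 and rank 7462. Klf4 (ENSMUST00000107619) had the fewest, 1490 with emetine and 2412 with cycloheximide, at rank 9858 and rank 10268. Of all coding regions, those with few or no reads included, that is the top 22.5% with emetine and the top 23.4% with cycloheximide.

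**Figure D1:**
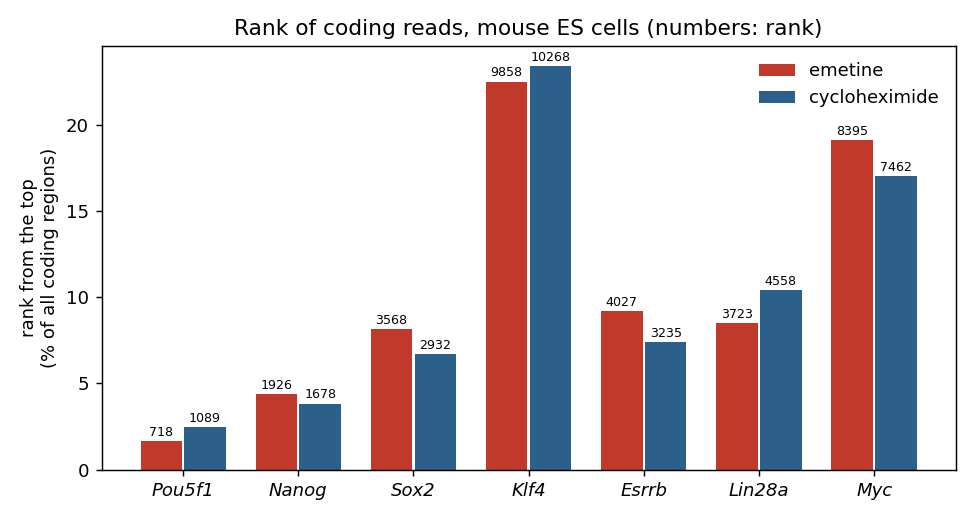
Rank of each gene's coding reads from the top, as a percentage of all 43857 mouse coding regions (y axis, low means many reads), for emetine (red) and cycloheximide (blue), 1 library each, with the rank printed above each bar. Pou5f1 ranks highest at 718 with emetine and 1089 with cycloheximide, and Klf4 lowest at 9858 and 10268.

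The comparison of the drugs asks whether footprints move with the inhibitor that stops the ribosome. Ratios of emetine over cycloheximide were divided by the median ratio of coding regions that had 100 or more summed reads, which puts that median at 0 on the log2 scale. None of the 7 coding regions differed by 2-fold (0 of 7 higher and 0 of 7 lower). Among all 28604 coding regions compared, 1.46% were higher by 2-fold or more and 1.19% lower by as much. The members' median log2 ratio was -0.20, against 0.0 for all coding regions, whose quartiles were -0.27 and 0.28.

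Short of 2-fold, the genes fell on both sides, with 3 above and 4 below the median coding region. Nanog at -0.33, Sox2 at -0.37 and Esrrb at -0.39 lay below the lower quartile of -0.27, and the other genes lay between the quartiles. Pou5f1 was 1.14-fold higher with emetine (interval 1.12 to 1.16) and Lin28a 1.15-fold higher (1.11 to 1.20). Klf4 was 1.09-fold higher (1.02 to 1.16). These 3 lay at percentiles 67.6, 69.1 and 60.9 of all coding regions, in the order Pou5f1, Lin28a and Klf4, so many coding regions were higher still.

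Esrrb, Sox2 and Nanog had the lowest ratios. Esrrb with emetine stood at 0.761 of its scaled cycloheximide level (interval 0.733 to 0.789), Sox2 at 0.774 (0.747 to 0.802) and Nanog at 0.794 (0.773 to 0.815). Myc stood at 0.868 (0.821 to 0.917), but scaled to total coding counts, which shifts every log2 ratio up by 0.24, the median coding region included, its log2 ratio is 0.03 in place of -0.20. That shift leaves each gene's place relative to the median coding region as it was. Esrrb, Sox2 and Nanog lay at percentiles 16.4, 18.0 and 20.4, so none was extreme.

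A scaling that shifts every ratio alike leaves the gap between genes as it is. Under such scalings Lin28a over Esrrb, the widest gap, differed 1.52-fold in its emetine over cycloheximide ratio (interval 1.44 to 1.60), and Pou5f1 over Esrrb 1.5-fold (1.44 to 1.57). Pou5f1 and Sox2, partners on DNA, differed 1.47-fold (1.42 to 1.54). Within Pou5f1, Lin28a and Klf4, and within Nanog, Sox2 and Esrrb, the intervals of the gaps held 1. Lin28a over Pou5f1, for example, was 1.01 (0.968 to 1.06) and Nanog over Sox2 was 1.03 (0.981 to 1.07). Myc over Nanog was 1.09 (1.03 to 1.16). These intervals cover counting error only, and how often other pairs of coding regions differ by as much was not tested.

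The ratio of a coding region moved with its number of reads, so each gene was also set beside coding regions within the same 0.5 log2 units of summed reads. Around Pou5f1, the median log2 ratio of 491 such coding regions was -0.29, and Pou5f1 at 0.19 stood 0.48 above it, at percentile 94.2. Around Lin28a, the median of 1643 was -0.07, and Lin28a at 0.21 stood 0.27 above it, at percentile 81.5. Nanog at -0.33 came closer to its neighbours, whose median was -0.19, and lay 0.14 below them on the log2 scale (a difference of -0.14). Sox2 and Esrrb shared 1 bin of 1223 coding regions with a median of -0.10, and differed from it by -0.27 and -0.29. Klf4 differed by 0.09 and Myc by -0.23. Each gene fell on the same side of 0 as before, but the gaps changed: Pou5f1 in place of Lin28a was the highest, and Myc lay below Nanog. Pou5f1 was the gene that stood farthest from coding regions with as many reads.

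**Figure D2:**
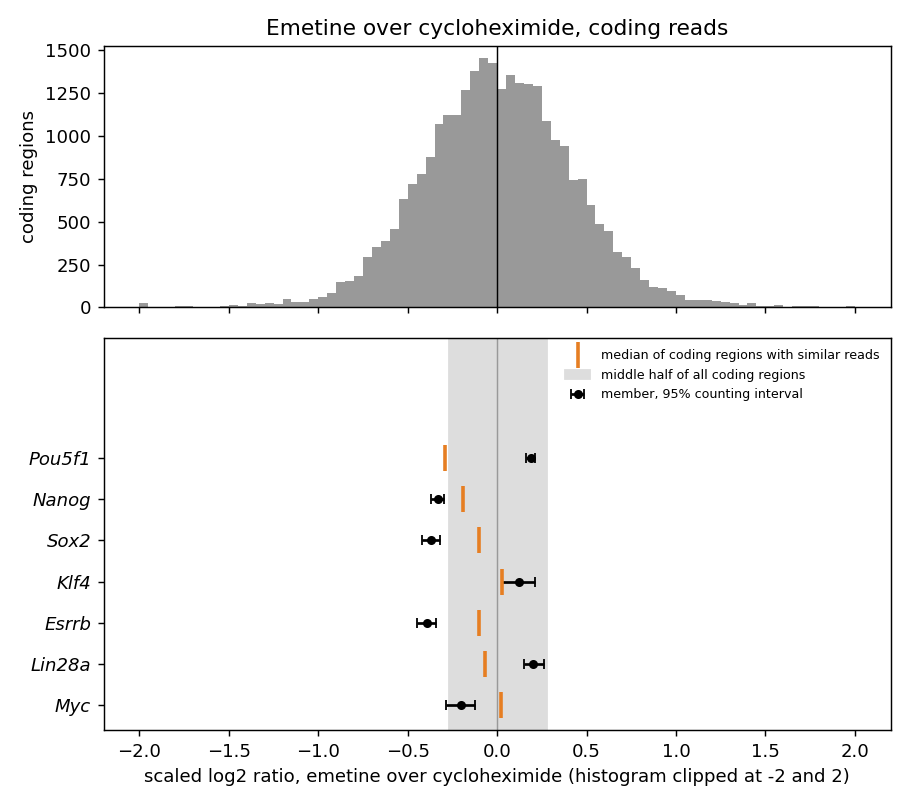
Scaled log2 ratio of coding reads, emetine over cycloheximide (x axis). Top, the number of coding regions at each ratio (28604 in all); bottom, each gene as a point with its 95% counting interval, the orange tick being the median of coding regions with similar reads and the grey band running between the quartiles of all. Pou5f1, Klf4 and Lin28a lie right of 0 and Nanog, Sox2, Esrrb and Myc left of it, Myc turning to 0.03 when scaled to total coding counts.

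The 5' leader, the untranslated stretch before the coding region, is where short upstream open reading frames and initiating ribosomes can give footprints. In 4 of 7 genes it carried far more reads per coding read than the median transcript in both libraries. These were Sox2, Nanog, Myc and Klf4. In Pou5f1, Esrrb and Lin28a it carried fewer than the median transcript in both. Lin28a was close to the median, at percentile 48.4 with emetine and 43.5 with cycloheximide. About as many transcripts lie above a median as below it, and the share above it in both libraries was not counted. The median over 24969 transcripts with a leader was 2.88 leader reads per 100 coding reads with emetine and 2.44 with cycloheximide; the members' median was 18.3 with emetine and 13.4 with cycloheximide.

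Sox2 had the most leader reads for its coding region. It had 1735 leader reads with emetine and 2844 with cycloheximide, which is 38.9 per 100 coding reads with emetine (interval 36.7 to 41.1) and 28.1 with cycloheximide (26.9 to 29.3). That put it at percentile 92.0 with emetine and 91.4 with cycloheximide. Its coding region held 62.5% of the transcript's reads with emetine and 71.4% with cycloheximide, the lowest coding share of the 7 genes in both.

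Nanog, Myc and Klf4 resembled one another. Nanog had 1562 leader reads with emetine and 2315 with cycloheximide, or 20.0 per 100 coding reads (18.9 to 21.1) against 13.4 (12.8 to 14). Myc had 372 with emetine and 572 with cycloheximide, or 19.8 (17.6 to 22.1) against 15 (13.7 to 16.4). Klf4 had 273 with emetine and 446 with cycloheximide, or 18.3 (16.0 to 20.9) against 18.5 (16.7 to 20.5). These 3 leaders lay between percentiles 81.3 and 86.4 of transcripts in both libraries, and in Klf4 the intervals of the libraries overlap.

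The other 3 leaders held fewer reads. Lin28a had 111 with emetine and 104 with cycloheximide, or 2.58 per 100 coding reads (2.11 to 3.11) against 1.59 (1.29 to 1.92). Its interval with emetine held the median of 2.88. Pou5f1, with the most coding reads of all, had 41 leader reads with emetine and 18 with cycloheximide, or 0.247 (0.177 to 0.336) against 0.0706 (0.0418 to 0.112). Esrrb had 6 with emetine and 0 with cycloheximide, where 0 reads, set at a floor of 3 reads, allow up to 0.0325 per 100 coding reads (0.04 by the two-sided interval). Each gene is represented by 1 transcript, and the table of RefSeq starts lists 2 starts each for Pou5f1, Nanog and Esrrb, so reads on another isoform's leader may be missed here.

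The leader gained on its coding region with emetine in 4 of the 5 genes that had at least 100 leader reads summed over the libraries. This comparison is free of scaling. Lin28a's leader was 1.62-fold higher against its coding region (1.23 to 2.15), Nanog's 1.49-fold (1.39 to 1.60), Sox2's 1.38-fold (1.29 to 1.48) and Myc's 1.32-fold (1.14 to 1.52). Klf4's was 0.991 (0.838 to 1.17). The median log2 difference of these 5 was 0.47, against 0.39 over all 10499 transcripts compared, of which 70.9% lay above 0. None of the 5 leaders differed by 2-fold, while 19.1% of all leaders were higher by 2-fold or more and 3.42% lower by as much. Among all these transcripts the 5 leaders lay from percentile 28.6 in Klf4 to percentile 66.6 in Lin28a.

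Nanog, Sox2 and Myc had a leader ratio above 1 and a coding ratio below 1. How many of all transcripts show this split was not counted. Against their own coding regions these leaders lay at the ordinary percentiles 60.3, 54.3 and 50.2, in the order Nanog, Sox2 and Myc. On the scale of the median coding region Nanog's leader was 1.19-fold higher with emetine (1.11 to 1.26), while its coding region stood at 0.794. Sox2's leader was 1.07-fold higher (1.01 to 1.14), with its coding region at 0.774. Myc's leader was 1.14-fold higher (1.0 to 1.30), with its coding region at 0.868. Scaling to total coding counts left both coding regions below 0 on the log2 scale, Nanog at -0.10 and Sox2 at -0.13, but put Myc at 0.03. In Lin28a leader and coding region were both higher, 1.88-fold (1.42 to 2.47) and 1.15-fold. Pou5f1's leader had under 100 summed reads and was left out of the comparison; its ratio against the coding region was 3.50 with the wide interval 1.97 to 6.48.

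**Figure D3:**
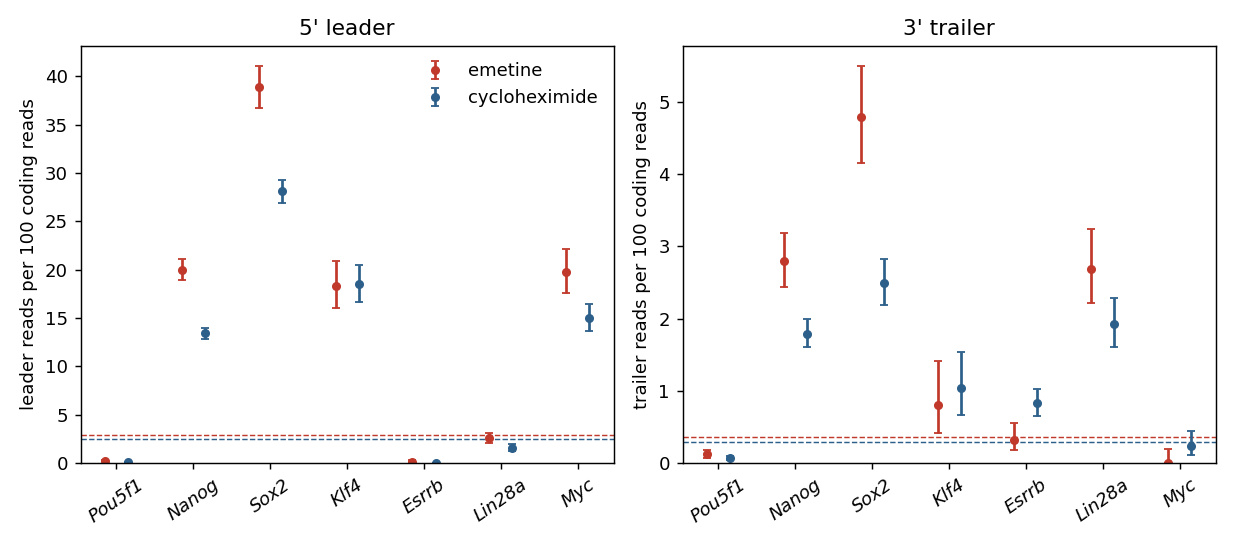
Leader reads (left) and trailer reads (right) per 100 coding reads of the same transcript (y axes, scales differ) for each gene with emetine (red) and cycloheximide (blue), 1 library each; bars are 95% counting intervals and dashed lines the medians over all transcripts. Sox2, Nanog, Klf4 and Myc stand above the leader medians of 2.88 with emetine and 2.44 with cycloheximide, and Pou5f1, Esrrb and Lin28a below them.

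The 3' trailer, the untranslated stretch after the stop codon, held few reads in every member. Trailers of 4 of 7 genes, Sox2, Nanog, Lin28a and Klf4, were above the median transcript in both libraries. About as many transcripts lie above that median as below it, and the share above it in both libraries was not counted. That median, over 27294 transcripts, was 0.356 trailer reads per 100 coding reads with emetine and 0.284 with cycloheximide, and the members' median was 0.805 with emetine and 1.04 with cycloheximide.

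Sox2 again had the highest value, with 214 trailer reads with emetine and 252 with cycloheximide, or 4.79 per 100 coding reads (4.16 to 5.50) against 2.49 (2.19 to 2.82). Nanog had 218 with emetine and 310 with cycloheximide, or 2.79 (2.43 to 3.19) against 1.79 (1.60 to 2.0). Lin28a had 116 with emetine and 126 with cycloheximide, or 2.69 (2.22 to 3.24) against 1.92 (1.60 to 2.29). These were the 3 genes with enough trailer reads to compare the drugs, and in all 3 the trailer was higher against its coding region with emetine.

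Sox2's trailer was 1.93-fold higher against its coding region with emetine (1.59 to 2.33), Nanog's 1.56-fold (1.30 to 1.86) and Lin28a's 1.40-fold (1.08 to 1.82). Their median log2 difference was 0.64, against 0.25 over all 5467 trailers compared, of which 63.7% lay above 0. With a minimum of 30 summed reads 4 of 6 trailers were higher, Klf4 and Esrrb being the lower ones. None of the 3 reached 2-fold, which 22.0% of all trailers did upward and 3.46% downward. Sox2's lay at percentile 76.1, Nanog's at 66.2 and Lin28a's at 60.3.

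The trailers of the other 4 genes had under 100 reads summed over the libraries. Esrrb had 13 reads with emetine and 76 with cycloheximide, or 0.325 per 100 coding reads (0.173 to 0.557) against 0.824 (0.648 to 1.03), the one trailer in the set whose interval with emetine lay wholly below that with cycloheximide. Esrrb's trailer lay at percentile 49.0 with emetine and 65.6 with cycloheximide. Klf4 had 12 with emetine and 25 with cycloheximide, or 0.805 per 100 coding reads (0.415 to 1.41) against 1.04 (0.669 to 1.53). That put Klf4 at percentiles 60.2 and 68.9, above the median transcript in both. Pou5f1 had 20 with emetine and 16 with cycloheximide. Myc had 0 with emetine, which at the same floor allows up to 0.159 per 100 coding reads (0.196 by the two-sided interval), and 9 with cycloheximide, or 0.236 per 100; a drop from that level could not be resolved well at this depth.

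Part of each transcript's reads lay in none of the 3 counted parts. The sources used here do not state where each part begins and ends, so the place of these reads on the transcript is unknown. They were examined after the values had been seen. Lin28a had 1309 such reads with emetine and 2194 with cycloheximide, or 30.4 per 100 coding reads (28.5 to 32.3) against 33.4 (31.8 to 35.1). Pou5f1 had 3954 with emetine and 4283 with cycloheximide, or 23.8 (23.0 to 24.7) against 16.8 (16.3 to 17.3). Both genes, whose leaders were below the median transcript, Lin28a's close to it, were above most transcripts here. Lin28a lay at percentile 88.5 with emetine and 93.6 with cycloheximide and Pou5f1 at 84.0 and 83.4. In all, 5 of 7 genes were above the median transcript in both libraries. The share of all transcripts above it in both was not counted, and about as many lie above a median as below it. Among the 5 genes were Sox2 (percentiles 75.9 and 68.8), Klf4 (52.8 and 74.7) and Nanog, whose leaders were above the median too.

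Esrrb was the opposite case. It had 17 reads outside the parts with emetine and 39 with cycloheximide, or 0.426 (0.248 to 0.682) against 0.423 (0.300 to 0.578) per 100 coding reads, at percentile 9.1 with emetine and 4.2 with cycloheximide. Its coding region held 99.1% of the transcript's reads with emetine and 98.8% with cycloheximide, the highest coding share of the set. The median over 24550 transcripts was 7.12 per 100 coding reads with emetine and 5.69 with cycloheximide. Nanog, at 9.62 with emetine and 10.1 with cycloheximide, lay above both medians, and Myc, at 7.12 and 4.30, did not.

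With emetine the remainder moved in both directions across the set. Against the own coding region it was 1.72-fold higher in Sox2 (1.55 to 1.91), 1.65-fold in Myc (1.30 to 2.11) and 1.42-fold in Pou5f1 (1.35 to 1.49). In Klf4 it stood at 0.662 (0.524 to 0.834), in Lin28a at 0.908 (0.839 to 0.983) and in Nanog at 0.955 (0.872 to 1.05). Of the 6 genes with at least 100 such reads, 3 lay above 0 on the log2 scale, against 74.2% of all 14600 transcripts compared, and none differed by 2-fold, which 15.8% did upward and 2.83% downward. Klf4, at percentile 7.6, was the lowest. In Klf4 neither the leader nor this remainder gained on the coding region with emetine.

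**Figure D4:**
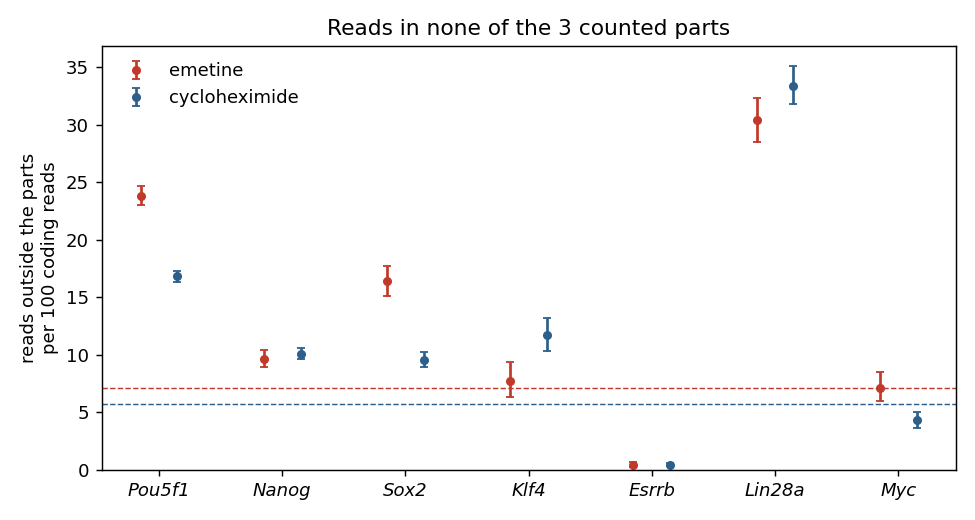
Reads in none of the 3 counted parts per 100 coding reads (y axis) for each gene with emetine (red) and cycloheximide (blue), 1 library each; bars are 95% counting intervals and dashed lines the medians over 24550 transcripts. Lin28a and Pou5f1 stand highest, at 30.4 and 23.8 with emetine and 33.4 and 16.8 with cycloheximide, and Esrrb near 0.

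All 7 genes, 6 of them taken as defining markers of ES cells, had coding reads in both libraries. A list of 19 other pluripotency genes and 20 markers of other cell types could not be looked up, because the name tables used here hold 0 of the 93380 identifiers in the files. Whether differentiated cells were also present was therefore not tested, and genes with a pattern like that of a member could not be named.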

How the data were processed

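Each mouse library has 1 deposited table of raw counts, which the authors made by counting reads per transcript; its header names whole transcript, coding region, 5' leader and 3' trailer. Footprints were made with RNase I and pelleted ribosomes, then converted to cDNA and amplified by PCR, per the labels' protocols. The submitters' processing notes name CASAVA 1.8, Bowtie2 2.0.6, TopHat2 2.0.7 and the build mm10 but not what each was used for. No annotation release is stated.

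The 7 transcripts and their gene names come from the list that defines the set; members and lists were chosen with earlier results of these data known. The rule named all 7. A part counted as present where neither library lists it as missing. Ratios were scaled to the median emetine over cycloheximide ratio (0.5691) among coding regions of 100 or more summed reads, with a prior of 0.5 reads before log2. Intervals are Clopper-Pearson, or exact conditional for ratios between 2 regions. A count of 0 was also set at a floor of 3 reads. Percentiles count ties as equally above and below. Counts for 28604 coding regions were also simulated with binomial counting error only and 200 regions changed 4-fold. All 200 passed the 2-fold cut. The simulation holds no variation between cultures, so it checks the calculation and says nothing about calls from 1 library per drug. Alternatives are other scalings (edgeR 4.0.16 TMM, total coding counts, centring by abundance), minimums, priors, thresholds, whole transcripts and repeated rows counted once. Python 3.11.15 and scipy 1.17.1 were used. The HEK libraries hold no mouse transcripts and were not used here. No sequence is shown, since none of the sources used here gives these transcripts' leaders or coding regions.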

Additional observations from a re-analysis of the deposited data

How the results depend on the processing

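No paired analysis was possible because emetine and cycloheximide have 1 library each; leaving out a library was not possible for the same reason. The number of genes in the top 10% in both libraries was 4, and it was 2 with coding regions of at least 100 summed reads and 2 with repeated rows counted once, since these leave 28604 and 34409 of 43857 coding regions to rank. The number of trailers higher against their coding region was 3 of 3, 1 of 1 with a minimum of 500 reads, which leaves fewer trailers to compare, and 4 of 6 with a minimum of 30. For leaders it was 4 of 5, 3 of 4 with 500 and 5 of 6 with 30. The other 38 alternative values of the counts stayed within 1.5 times the main count, though the number compared changes with the minimum. No gene reached 2-fold or 1.5-fold in its coding region under the main scaling, and no gene reached 2-fold under the other scalings, minimums and priors run. Single ratios left their counting interval in 17 of 70 cases, all of them with total coding counts, whole transcripts or centring by abundance. With whole transcripts Klf4 came to 0.01 on the log2 scale. Depth limits the leaders of Esrrb and Pou5f1 and the trailers of Myc, Klf4, Pou5f1 and Esrrb, which have under 100 summed reads. The intervals are too narrow even for counting where PCR copies are present.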
